A study of Mus musculus with 48 samples.

Results

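The genes described here are 40 genes of the ATF4 amino acid response, out of 18193 mouse genes that had a probe set on the array. They were taken from a list of symbols, which was chosen with earlier results of these data known. They comprise 8 regulators, 4 downstream effectors, 5 enzymes of serine and folate metabolism, 4 other enzymes of amino acid synthesis, 7 amino acid transporters and 12 cytosolic tRNA synthetases. A probe set was found for 39 of them, and Pycr1, a proline synthesis enzyme, was not analysed here because no probe set carried its symbol alone. Each gene was read from its probe set with the highest mean signal, and 37 genes were bright enough to be tested, among 12756 genes tested in all. Cth, an enzyme of cysteine synthesis, and Vldlr, a lipoprotein receptor, were too dim on these arrays.

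The cells were mouse 32D cells, a myeloid progenitor line, and all of them carried the p210 BCR/ABL oncoprotein, so no culture was free of it. A retroviral vector, MigRI, carried a fusion of C/EBPα with the estrogen receptor's ligand-binding region (C/EBPα-ER), and 4-hydroxytamoxifen (4-HT) switches that fusion on. The tested lines held wild-type C/EBPα-ER (WT), the K298E form, given in the labels as deficient in DNA binding, or the Δ(177-191) form, given as deficient in contact with the kinases CDK2 and CDK4, and the reference line held the empty vector. Each of the 4 lines was measured at 0, 6, 9 and 12 h after 4-HT on 3 arrays, which makes 16 groups and 48 arrays. The labels describe 1 line per construct and call the arrays triplicates in one place and separate experiments in another, so a p-value here reflects array-to-array spread alone. No culture without 4-HT was taken at a later time, so the vector line is what separates the construct from the drug, the handling and the time in culture.

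ATF4 is a transcription factor whose protein is made when eIF2 is phosphorylated, as happens when amino acids run short, the endoplasmic reticulum is strained or heme is lacking. It binds composite C/EBP-ATF response elements (CARE) together with a partner, often a member of the C/EBP family, and turns on genes that bring in amino acids, make them and charge them onto tRNA. Its feedback targets include Trib3, which restrains it, and Ddit3, which encodes CHOP.

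The CARE core was looked for as TGATGNAA on either strand (TTNCATCA read in reverse) in RefSeq promoter windows of assembly GRCm38.p6, each reaching from 250 bases before to 50 bases after a gene's start. Such windows were given for 33 of the 40 genes, and 14 of the 33 (42.4%) held the core, against 4.51% of 27025 genes of the genome. With C at the open position (TGATGCAA), 11 of the 33 (33.3%) held it, against 1.03% of all genes. By role the core stood in 2 of 8 regulators, 3 of 4 effectors, none of the 5 serine and folate enzymes, 2 of 3 other enzymes, 2 of 5 transporters and 5 of 8 tRNA synthetases. A match says only that the letters are there. Members from 4 roles are shown because their signals are followed below, read 5′ to 3′ along the gene's strand with each core in capitals. The Asns, Slc7a11 and Tars stretches cover the 100 bases before the start, those of Aars and Nupr1 the bases from -120 to -21, and that of Slc1a4 the bases from -26 to 4.
Asns, chr6:7693210-7693309, minus strand: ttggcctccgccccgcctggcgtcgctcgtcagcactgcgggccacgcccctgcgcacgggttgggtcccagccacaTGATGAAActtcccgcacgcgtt
Slc7a11, chr3:50443614-50443713, minus strand: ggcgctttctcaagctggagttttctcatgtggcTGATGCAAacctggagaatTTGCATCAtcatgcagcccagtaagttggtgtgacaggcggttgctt
Aars, chr8:111033722-111033821, plus strand: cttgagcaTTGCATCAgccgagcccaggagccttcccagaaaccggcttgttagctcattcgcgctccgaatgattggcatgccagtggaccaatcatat
Nupr1, chr7:126625491-126625590, minus strand: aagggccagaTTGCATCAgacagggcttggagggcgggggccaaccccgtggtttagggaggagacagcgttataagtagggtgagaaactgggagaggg
Tars, chr15:11399659-11399758, minus strand: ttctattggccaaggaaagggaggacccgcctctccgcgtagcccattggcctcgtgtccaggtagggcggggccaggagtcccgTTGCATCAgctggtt
Slc1a4, chr11:20332710-20332739, minus strand: agcctccagcgtgcctcctgcgTTGCATCA
Slc7a11 holds the core once on each strand within the stretch shown. Aars has a further match 9 bases after its start, outside the stretch shown, and the other 4 genes hold the core once in their window.

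The deposited values were MAS5 signals on a linear scale, scaled by the authors so that every array has the same trimmed mean, near 100. Array medians lay between 11 and 19, and the 3′/5′ signal ratio of the Gapdh control between 0.715 and 0.880. Esr1, the label of the fusions, had mean signals at 0 h of 2475 (WT), 1439 (K298E) and 3263 (Δ(177-191)), against 18.3 for the vector line. All 10 progenitor markers had a probe set, and Ptprc (CD45) was bright everywhere, but Kit and Cd34 stayed under a mean of 30 in all 16 groups. The 5 T cell markers summed to 24.3 to 101 in Δ(177-191) cells, against 27.7 to 43.3 in vector cells, and their part in the results was not tested. In bulk RNA, fewer cells of a type and less RNA per cell cannot be told apart.

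Before 4-HT most of these genes were already lower in the Δ(177-191) line than in the vector line. A gene passed the test at an adjusted p under 0.05 (limma, Benjamini-Hochberg over 27167 probe sets), and at 0 h 27 of the 37 genes were lower and 1 was higher in Δ(177-191) cells than in vector cells, where 28.6% of all genes tested passed in either direction (15.3% lower and 13.2% higher). The median difference was -0.57 on the log2 scale for the 37 genes, against -0.01 for all genes. All 12 tRNA synthetases were lower, at a median of -0.56, as were 6 of 8 regulators. Psat1, which makes phosphoserine, read 413, 434 and 466 on the Δ(177-191) arrays at 0 h, against 1237, 1377 and 1379 on the vector arrays. Asns, the asparagine synthetase, read 856, 853 and 870 in Δ(177-191) cells, against 1929, 1885 and 1926 in vector cells. Neither gene's groups overlapped, and the differences were -1.60 ± 0.07 for Psat1 and -1.15 ± 0.06 for Asns (log2, SE). The gene that was higher was Slc7a11, the cystine transporter, at 0.71 ± 0.24, and its adjusted p passed 0.05 (0.163 at most) when any of 3 arrays was left out (vector replicate 3, Δ(177-191) replicates 2 and 3).

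K298E cells were lower for 11 of the 37 genes at 0 h and higher for none, where 6.48% of all genes passed (3.46% lower and 3.02% higher). Of these 11, 9 were also among the genes lower in Δ(177-191) cells, which were set against the same vector arrays. Ddit3 read 170, 155 and 168 in K298E cells, against 341, 374 and 372 in vector cells, with no overlap and a difference of -1.13 ± 0.16. WT cells were higher for 2 of the 37 genes and lower for none, where 5.73% of all genes passed (2.92% higher and 2.81% lower). These were Atf4 itself, at 0.33 ± 0.07, and Ddit4, an inhibitor of mTOR signalling, at 0.71 ± 0.15. Median centring of the arrays, which took 0.14 off every WT difference at this time, left neither of these 2 calls (Atf4 0.19, Ddit4 0.56). The K298E count ranged from 6 to 10 over fits that left arrays out, with 6 when all arrays numbered 2 and 7 when all numbered 1 were left out. The WT count fell to 0 without the arrays numbered 2 and to 1 without those numbered 3.

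**Figure D1:**
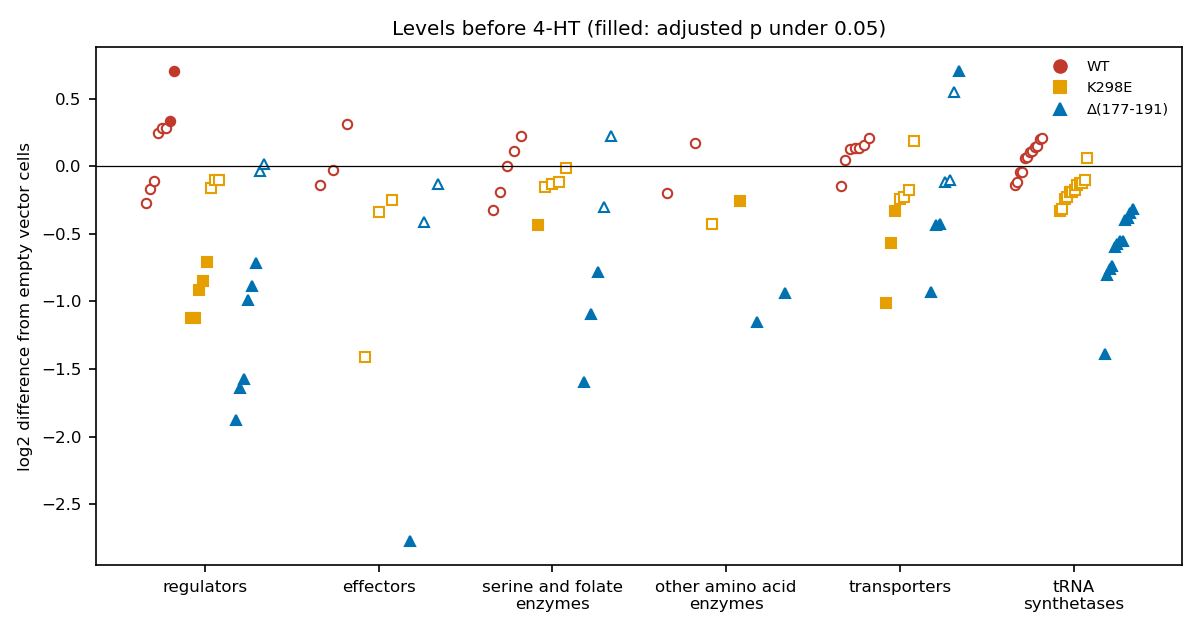
Log2 difference of each gene from empty vector cells before 4-HT (y axis), by role (x axis), in WT (circles), K298E (squares) and Δ(177-191) cells (triangles), where each point is 1 gene's estimate from 3 arrays per line and filled points passed the test. All 12 tRNA synthetases lie below 0 in Δ(177-191) cells, between -1.39 and -0.32, while no WT point of that role passed.

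After 4-HT most of these genes fell in WT and K298E cells, and in vector cells too. At 6 h, 25 of the 37 genes were lower than at 0 h in WT cells and none was higher, where 32.5% of all genes passed in either direction (19.0% lower and 13.5% higher), and the median change was -0.72, against -0.06 for all genes. K298E cells had 26 lower and none higher (all genes 12.5%, 7.02% lower and 5.44% higher), with a median of -0.63. Δ(177-191) cells were mixed, with 11 higher (the dim Chac1 among them) and 14 lower (all genes 30.6%, 12.3% higher and 18.3% lower) and a median of -0.09. In vector cells 31 were lower and none was higher (all genes 20.5%, 12.0% lower and 8.41% higher), with a median of -0.86, and all 8 regulators and all 12 tRNA synthetases were among them.

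At 9 h, 31 genes were lower and none higher in WT cells (all genes 30.6%, 15.7% lower and 14.9% higher), and 27 lower and none higher in K298E cells (all genes 4.92%, 2.52% lower and 2.4% higher). Δ(177-191) cells had 20 lower and 7 higher, the dim Chac1 among the higher ones (all genes 32.5%, 18.8% lower and 13.7% higher). Vector cells had 25 lower and none higher (all genes 19.1%, 9.99% lower and 9.09% higher).

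The 12 h means were set against the 6 h means as a description. The 12 h mean lay above the 6 h mean for 21 of the 37 genes in WT cells, by a median over the 37 of 0.07 on the log2 scale, for 26 in K298E cells (0.23) and for 8 in Δ(177-191) cells (-0.15), against 32 in vector cells (0.49), where all 12 tRNA synthetases were among them. Over all 12756 genes tested the 12 h mean lay above the 6 h mean for 6317 in WT, 6658 in K298E, 5988 in Δ(177-191) and 6162 in vector cells. The median over all genes lay between -0.03 and 0.02 in the 4 lines. These 12 h minus 6 h values are given without a test, and the Δ(177-191) genes had not fallen as a group at 6 h. Against 0 h, 29 of 37 genes were lower in WT cells at 12 h and none was higher (all genes 31.0%, 16.2% lower and 14.8% higher), with a median of -0.74. The counts lower at 12 h were 21 in K298E cells (all genes 2.33%, 1.3% lower and 1.03% higher), 19 in Δ(177-191) cells with 4 higher (all genes 30.5%, 18.3% lower and 12.2% higher), and 22 in vector cells (all genes 17.5%, 9.77% lower and 7.71% higher). Of the 29 genes lower in WT cells, 20 were lower in vector cells as well. The dim Fgf21 was among these 20, and the dim Chac1 was among the 4 higher in Δ(177-191) cells. The K298E count was 11 and the vector count 13 when all arrays numbered 2 were left out. In WT cells 23 genes were lower at 6, 9 and 12 h alike. These comparisons share the WT arrays at 0 h, and the matching share of all genes is not given here. Whether this count exceeds that of all genes was therefore not tested.

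**Figure D2:**
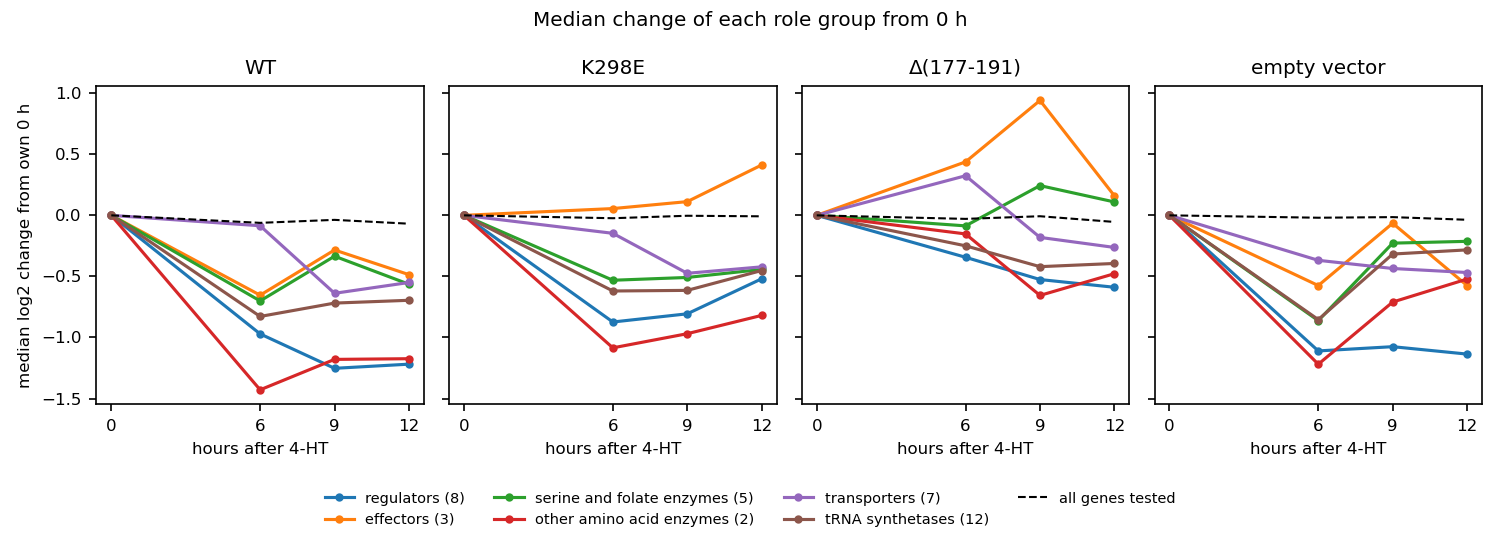
Median log2 change from each line's own 0 h (y axis) at 0, 6, 9 and 12 h after 4-HT (x axis), by role (coloured lines, number of genes tested in the key) with the median of all genes tested as a dashed line. The tRNA synthetases fell in WT cells to -0.83 (6 h) and -0.70 (12 h), and in vector cells to -0.85 and -0.28, and the median of all genes stayed within 0.07 of 0.

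The change in a construct line minus the change in the vector line is called the relative change here. It also carries the lines' different starting levels, and with 1 line per construct, construct and line cannot be told apart. All relative changes share the vector arrays. In WT cells at 12 h, 14 of the 37 genes had a lower relative change and 1 a higher one, where 7.2% of all genes passed (3.38% lower and 3.83% higher), and the median was -0.38, against -0.03 for all genes. The counts were 2 lower and 4 higher at 6 h (all genes 6.26%, 2.98% lower and 3.28% higher) and 11 lower and 1 higher at 9 h (all genes 6.11%, 2.85% lower and 3.26% higher), and 10 of the 14 genes had also passed at 9 h. All 14 had fallen from their own 0 h level in WT cells. Median centring, which took -0.17 off every WT relative change, left 5 of the 14 (Trib3, Atf4, Asns, Slc1a4 and Cars) and the 1 higher gene. In K298E cells at 12 h, 5 genes had a lower and 4 a higher relative change (all genes 5.62%, 2.24% lower and 3.38% higher), and in Δ(177-191) cells 6 a lower and 8 a higher one (all genes 22.4%, 12.4% lower and 9.97% higher). Earlier, K298E cells had none lower and 2 higher at 6 h (all genes 1.29%, 0.118% lower and 1.18% higher) and 8 lower and 1 higher at 9 h (all genes 5.17%, 1.97% lower and 3.2% higher). The 9 h counts for Δ(177-191) cells were 4 lower and 9 higher (all genes 22.4%, 12.7% lower and 9.68% higher). The dim Fgf21 was among these 9, and its call is not read as a result. Median centring left none of the K298E calls, and 2 lower and 4 higher in Δ(177-191) cells. The shift it took off was small in both, at 0.06 for K298E and 0.03 for Δ(177-191) cells. On 35 further probe sets of 22 of the genes, the call was the same for 28 (WT), 30 (K298E) and 23 (Δ(177-191)), and opposite for none. The same call includes pairs where neither probe set passed. Among called genes in WT cells, Nupr1, Mthfd2, Asns, Slc1a4, Aars and Nars kept the call, and Atf4, Trib3, Sesn2, Sars and Iars lost it. In K298E cells Nupr1 kept it, and Trib3, Psat1, Asns and Nars (-0.12, adjusted p = 0.704) lost it. In Δ(177-191) cells Nupr1, Asns, Slc7a11 and Slc1a4 kept it, Shmt2 was mixed, and Atf4, Psat1, Mthfd2, Sesn2 and Slc38a2 lost it. The K298E count of 9 ranged from 1 to 8 when arrays were left out: it was 4, 1 and 1 without all arrays numbered 1, 2 and 3, and 5 without vector 12 h replicate 1 or without K298E 0 h replicate 3. The Δ(177-191) count of 14 was 8 without the arrays numbered 2 and 7 without those numbered 3.

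**Figure D3:**
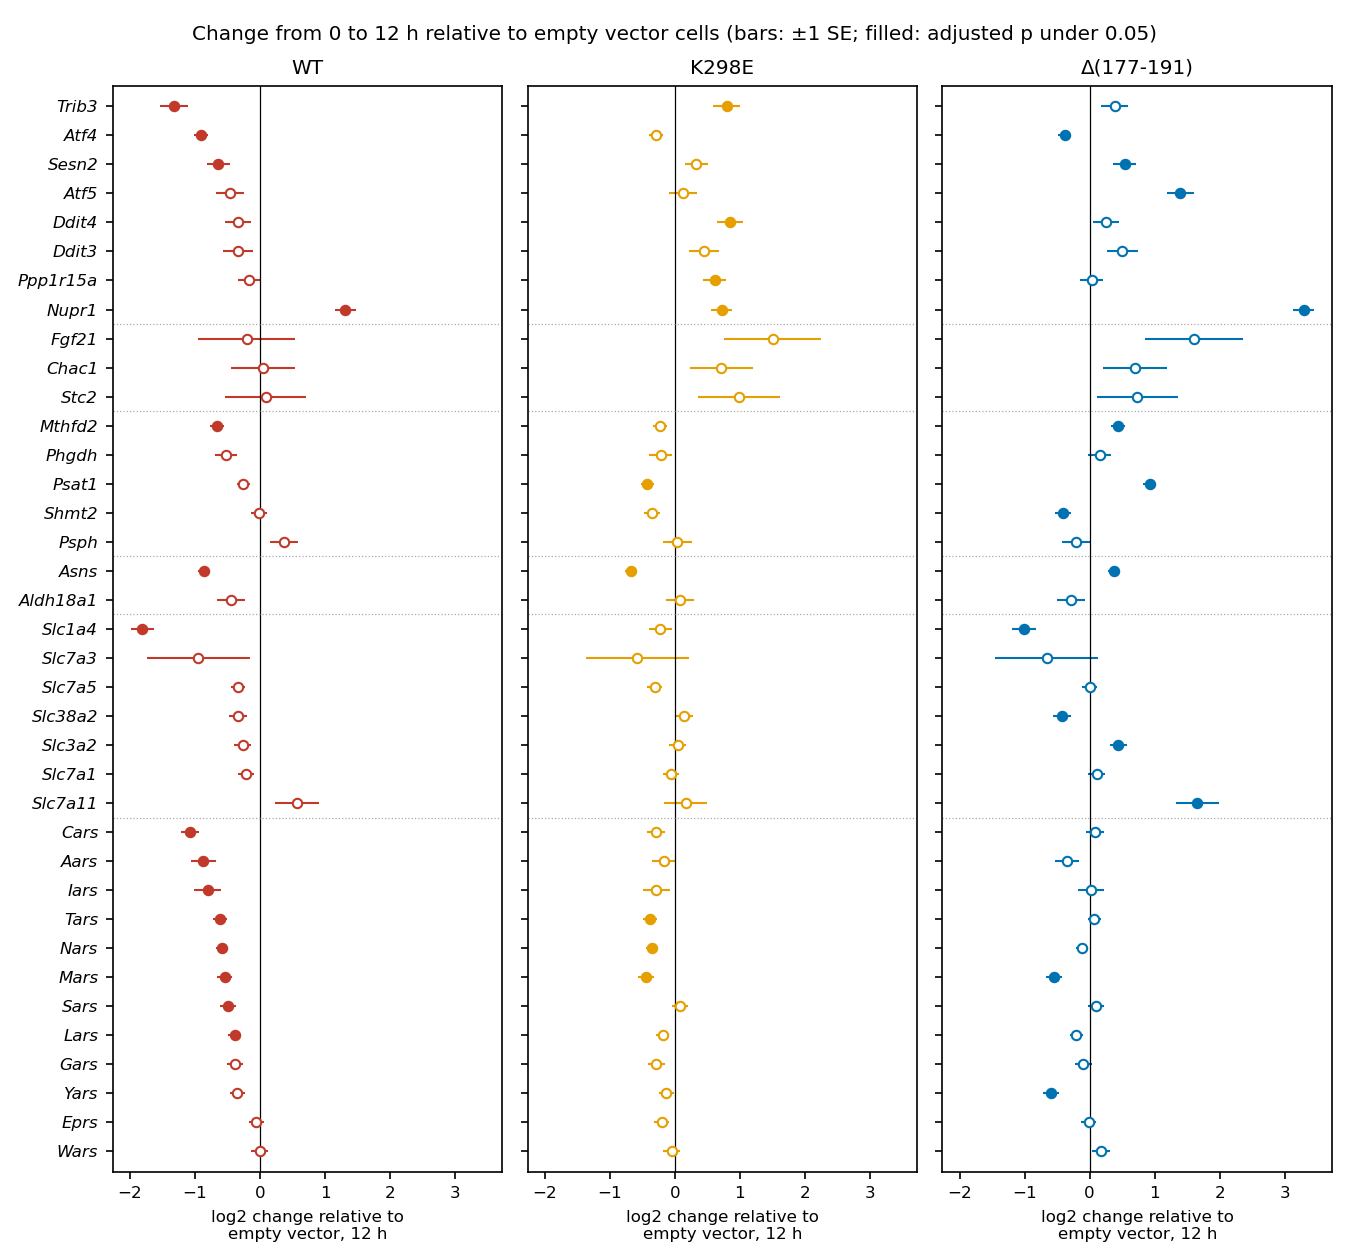
Change over 12 h in each construct line minus the change in empty vector cells (x axis, log2) for the 37 genes (y axis, grouped by role and ordered by the WT value), with bars of 1 SE and filled points where the adjusted p was under 0.05. All 12 tRNA synthetases lie below 0 in WT cells and Slc1a4 lies lowest at -1.81, while Nupr1 reaches 1.31 in WT and 3.29 in Δ(177-191) cells.

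Among the regulators, Atf4 mRNA itself had a lower relative change in WT cells. The WT arrays read 1426, 1344 and 1315 at 12 h, against 2838, 3023 and 2753 at 0 h, and the vector arrays 2093, 1939 and 2062 at 12 h, against 2286, 2252 and 2292 at 0 h. Every WT array at 12 h lay below every vector array at 12 h, although WT cells had started higher. The relative change was -0.37 ± 0.10 at 6 h, -0.86 ± 0.10 at 9 h and -0.91 ± 0.10 at 12 h (adjusted p = 1.44e-08 at 12 h), and Atf4 and Slc1a4 were the 2 genes lower at all 3 times. Both means at 6 h were close, at 1026 ± 59.0 in WT and 1052 ± 32.5 in vector cells (SD, n = 3 each). K298E cells read 1505, 1486 and 1662 at 12 h and Δ(177-191) cells 959, 939 and 941. The relative change in K298E cells at 12 h was -0.29 ± 0.10 (adjusted p = 0.124), and that in Δ(177-191) cells was -0.38 ± 0.10 at 12 h after 0.89 ± 0.10 at 6 h. A further Atf4 probe set, of the kind whose probes may match other transcripts (suffix _x), gave -0.62 in WT cells (adjusted p = 0.279) and 0.00 in Δ(177-191) cells (adjusted p = 0.996), which ends both calls.

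Trib3, the pseudokinase that restrains ATF4, showed the steepest fall among the named regulators in WT cells. WT arrays read 88, 101 and 96 at 12 h, against 738, 736 and 676 at 0 h, and vector arrays 209, 188 and 198, against 528, 621 and 621. All 4 lines were lower at 12 h than at 0 h with no overlap, and the WT arrays were below the vector arrays at 12 h although they had been above them at 0 h. The relative change was -1.32 ± 0.21 in WT cells (adjusted p = 1.37e-05). In K298E cells it was 0.80 ± 0.21, with 147, 157 and 169 at 12 h, against 263, 291 and 252 at 0 h, so the higher relative change stands for a smaller fall and not for a rise. That call ended (adjusted p = 0.0516) without K298E 0 h replicate 3. In Δ(177-191) cells the relative change was 1.56 ± 0.21 at 6 h and 0.38 ± 0.21 (adjusted p = 0.251) at 12 h. A further Trib3 probe set with the suffix _x gave -0.65 in WT cells (adjusted p = 0.173) and 0.32 in K298E cells (adjusted p = 0.665), which ends both calls.

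Ddit3, which encodes the stress factor CHOP, fell in all 4 lines. WT arrays read 99, 114 and 126 at 12 h, against 353, 347 and 307 at 0 h, and vector arrays 159, 150 and 154, against 341, 374 and 372. The WT relative change of -0.34 ± 0.23 at 12 h did not pass (adjusted p = 0.587), whereas that at 9 h, -0.82 ± 0.23, did. Sesn2, which senses leucine upstream of mTOR, had a WT relative change of -0.64 ± 0.18 at 12 h and a Δ(177-191) one of 0.54 ± 0.18. Its WT arrays at 12 h (147, 180 and 104) overlapped the vector arrays (186, 179 and 177), and its calls ended when any of 4 arrays was left out in each comparison. For WT the value was then -0.43 to -0.61 (vector 0 h replicate 3, WT 0 h replicates 1 and 3, WT 12 h replicate 3), and for Δ(177-191) it was 0.49 to 0.53 (vector 0 h replicate 2 and 12 h replicate 3, Δ(177-191) 0 h replicate 3 and 12 h replicate 2). A further Sesn2 probe set gave -0.78 in WT cells (adjusted p = 0.107) and, with the sign turned, -0.23 in Δ(177-191) cells (adjusted p = 0.71).

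Atf5, a related transcription factor that ATF4 induces, and Nupr1, a small stress-induced chromatin protein, had other courses. Atf5 read 312, 291 and 316 at 6 h in Δ(177-191) cells, against 119, 109 and 118 at 0 h, and had returned to 102, 108 and 137 at 12 h. Vector arrays read 187, 214 and 203 at 6 h, against 340, 374 and 382 at 0 h. The Δ(177-191) relative change was 2.24 ± 0.21 at 6 h and 1.40 ± 0.21 at 12 h. At 12 h the Δ(177-191) arrays overlapped their own 0 h arrays, while vector cells had fallen. In WT cells Atf5 was nearly level at 6 h (297, 280 and 326, against 344, 329 and 300 at 0 h) and then fell to 67, 99 and 99 at 12 h.

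Nupr1 was the only regulator whose relative change was higher in all 3 construct lines at 12 h. Δ(177-191) arrays read 352, 407 and 360 at 12 h, against 94, 85 and 97 at 0 h. WT arrays read 204, 216 and 198, against 209, 206 and 200, and vector arrays 73, 58 and 74, against 170, 173 and 175. The gene thus rose in Δ(177-191) cells, by 1.98 ± 0.12, while its change in WT cells was 0.01 ± 0.12 and it fell in vector cells, by 1.31 ± 0.12. The relative change was 3.29 ± 0.16 in Δ(177-191) cells, 1.31 ± 0.16 in WT cells and 0.72 ± 0.16 in K298E cells. In K298E cells Nupr1 had started lower than in vector cells (-0.85 ± 0.12) and was lower than its own 0 h at all 3 times. Its K298E arrays at 12 h overlapped the vector arrays, so the K298E value stands for a smaller fall and not for a rise. In K298E cells, Ddit4 (0.85 ± 0.21) and Ppp1r15a (0.61 ± 0.18), whose product returns eIF2 to its unphosphorylated form, also had a higher relative change, and neither rose from its own 0 h. The Ppp1r15a call ended when any of 7 of the 12 arrays was left out (value 0.49 to 0.64, adjusted p up to 0.160: all 3 vector arrays at 0 h, vector 12 h replicates 1 and 2, K298E 0 h replicate 1 and K298E 12 h replicate 3).

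**Figure D4:**
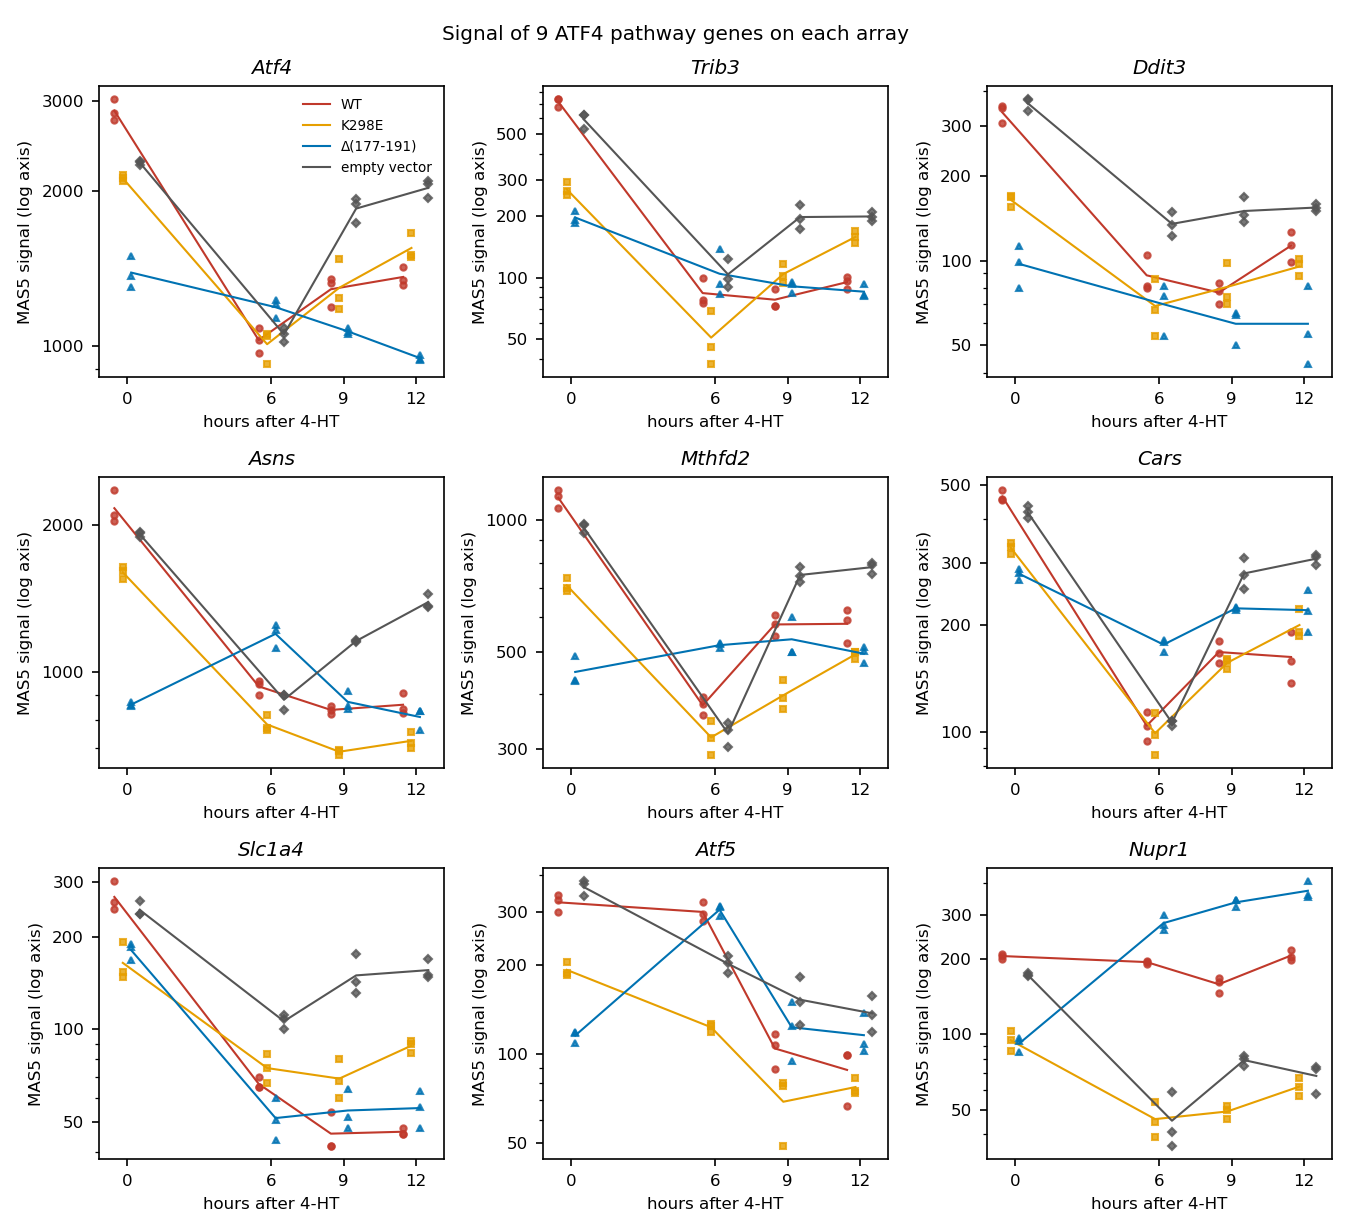
MAS5 signal (y axis, log scale) of 9 genes on each of the 48 arrays at 0, 6, 9 and 12 h after 4-HT (x axis, lines set slightly apart), with points for arrays and lines through the means of 3. Atf4 in WT cells has a mean of 1362 at 12 h, against 2031 in vector cells, after close means at 6 h, and Nupr1 climbs to 373 in Δ(177-191) cells alone.

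The effectors were dim on these arrays. Chac1, a glutathione-degrading enzyme, Stc2, a secreted glycoprotein, and Fgf21, a metabolic hormone, had group means no higher than 24.7, 30.7 and 45.3, and they passed the brightness filter (a signal of 14) through their highest groups, so no count of them is read as a result. Fgf21 read 2, 2 and 11 at 0 h in Δ(177-191) cells and 44, 37 and 53 in WT cells, against 46, 42 and 48 in vector cells, and the Δ(177-191) arrays lay below all the others. At 12 h it read 4, 9 and 7 in WT cells and 9, 16 and 3 in vector cells. Fold changes of such low signals depend on the 3 added before the logarithm. These dim genes remain in the counts over the 37 genes. Against 0 h, Fgf21 was counted as lower at all 3 times in vector cells, and Chac1 as higher at all 3 in Δ(177-191) cells.

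In the serine and folate group, the mitochondrial folate enzyme Mthfd2 and the serine enzyme Psat1 showed how far Δ(177-191) cells differed. Mthfd2 read 525, 624 and 590 at 12 h in WT cells, against 1138, 1170 and 1065 at 0 h, and 755, 790 and 798 in vector cells, against 973, 934 and 979. The WT relative change was -0.65 ± 0.11 at 12 h, after -0.01 ± 0.11 at 6 h when both lines had fallen alike. In Δ(177-191) cells Mthfd2 read 471, 513 and 502 at 12 h, against 428, 490 and 432 at 0 h, and its relative change was 1.76 ± 0.11 at 6 h and 0.44 ± 0.11 at 12 h. A further Mthfd2 probe set gave 0.34 at 12 h in Δ(177-191) cells (adjusted p = 0.0867).

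Psat1 rose in Δ(177-191) cells at all 3 times. Its arrays read 698, 672 and 633 at 12 h, against 413, 434 and 466 at 0 h, while vector cells fell to 1065, 1024 and 1108, against 1237, 1377 and 1379. Even so the Δ(177-191) arrays stayed below the vector arrays at 12 h. The relative change was 0.93 ± 0.10 in Δ(177-191), -0.42 ± 0.10 in K298E (adjusted p = 0.0081) and -0.26 ± 0.10 in WT cells (adjusted p = 0.173). A further Psat1 probe set (suffix _s) passed in neither mutant, at 0.54 in Δ(177-191) (adjusted p = 0.257) and -0.60 in K298E cells (adjusted p = 0.332). Shmt2, the mitochondrial serine hydroxymethyltransferase, read 1105, 1005 and 997 in WT cells at 12 h, against 1117, 1048 and 1193 at 0 h, and its WT relative change was -0.01 ± 0.13. In Δ(177-191) cells it was -0.41 ± 0.13, a call that ended (-0.37, adjusted p = 0.0501) without Δ(177-191) 12 h replicate 1 and on a pair of further probe sets of suffix _x (-0.34 and -0.03, adjusted p = 0.412 and 0.989). In K298E cells Shmt2 did not pass on its brightest probe set (-0.35, adjusted p = 0.129) but did on another (-0.55, adjusted p = 0.00012). Phgdh, which opens the serine pathway, was read from a probe set that pseudogenes may share. In WT cells at 12 h its relative change did not pass there (-0.52, adjusted p = 0.0727) but did on another probe set of suffix _x (-0.43, adjusted p = 0.036). Psph, which completes the pathway, passed in none of the 3 lines' relative changes at 12 h.

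Asns, which makes asparagine and is a classical ATF4 target, had a lower relative change in WT and K298E cells and a higher one in Δ(177-191) cells. WT arrays read 909, 843 and 825 at 12 h, against 2350, 2033 and 2097 at 0 h. K298E arrays read 717, 702 and 757, against 1552, 1608 and 1637. Δ(177-191) arrays, at 764, 835 and 834 against 856, 853 and 870, had gone through 1249, 1222 and 1123 at 6 h. Vector arrays read 1367, 1359 and 1446 at 12 h, against 1929, 1885 and 1926 at 0 h, and all construct arrays at 12 h lay below them. The relative change at 12 h was -0.87 ± 0.09 in WT (adjusted p = 3.49e-10), -0.68 ± 0.09 in K298E and 0.38 ± 0.09 in Δ(177-191) cells. A further Asns probe set of suffix _x gave -0.42 in K298E cells (adjusted p = 0.108). Aldh18a1, which starts proline synthesis, fell in WT (-1.02 ± 0.15) and vector cells (-0.58 ± 0.15), and its relative change passed in no line at 12 h on the brightest probe set (-0.29 in Δ(177-191) cells, adjusted p = 0.461), whereas one of suffix _x gave -1.02 in Δ(177-191) cells (adjusted p = 0.00072).

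Of the transporters, Slc1a4, which carries neutral amino acids such as alanine and serine, had the most negative WT relative change of the 37 genes. WT arrays read 48, 46 and 46 at 12 h, against 258, 302 and 246 at 0 h, and Δ(177-191) arrays 56, 63 and 48, against 189, 185 and 168. Vector arrays read 150, 148 and 169, against 236, 236 and 260, and lay above the arrays of all 3 construct lines at 12 h, K298E included. The relative change was -1.81 ± 0.18 in WT (adjusted p = 7.38e-10), -1.01 ± 0.18 in Δ(177-191) and -0.22 ± 0.18 in K298E cells (adjusted p = 0.67). It was lower at all 3 times in both WT and Δ(177-191) cells.

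The subunits of the cystine transporter had a higher relative change in Δ(177-191) cells. Slc7a11 read 195, 178 and 164 at 12 h in Δ(177-191) cells, against 97, 115 and 108 at 0 h, and 31, 32 and 34 in vector cells, against 68, 77 and 50. All Δ(177-191) arrays at 12 h lay above those of their own 0 h and of vector cells, and the relative change was 1.66 ± 0.33 (adjusted p = 0.000202). The rise from its own 0 h, 0.73 ± 0.24, ended as a call without Δ(177-191) 0 h replicate 1 or 12 h replicate 1 (0.67 each). WT cells read 37, 52 and 45 and the WT relative change was 0.57 ± 0.33 (adjusted p = 0.469). Slc3a2, the heavy chain that Slc7a11 and Slc7a5 share, read 1575, 1429 and 1514 at 12 h in Δ(177-191) cells, against 1590, 1510 and 1491 at 0 h, and its relative change was 0.44 ± 0.13. Vector cells had fallen to 1531, 1459 and 1493, against 2069, 1983 and 2155. At 6 h, 5 of the 7 transporters had a higher relative change in Δ(177-191) cells, and the same 5 (Slc7a1, Slc7a5, Slc7a11, Slc3a2 and Slc38a2) had risen from their own 0 h. The shares of all genes that passed at 6 h stand with the counts over the 37 genes. Slc38a2, which carries glutamine, then turned to -0.42 ± 0.14 at 12 h, a call that ended when any of 6 arrays was left out (-0.31 to -0.41: vector 0 h replicate 1, vector 12 h replicate 2, Δ(177-191) 0 h replicates 2 and 3, Δ(177-191) 12 h replicates 1 and 3). Its further probe sets gave -0.19 (adjusted p = 0.474) and 0.38 (adjusted p = 0.638) in Δ(177-191) cells. In WT cells one of these passed, at -0.70 (adjusted p = 0.000875), where the brightest did not (-0.33, adjusted p = 0.203). Slc7a3 stayed at group means of 4.67 to 16.3 and passed in no comparison at 12 h.

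Of the 12 tRNA synthetases in WT cells at 12 h, 11 were lower than at 0 h, and 8 had a lower relative change, with a median of -0.52 and all 12 values below 0. Cars, the cysteine synthetase, read 159, 192 and 137 at 12 h in WT cells, against 482, 451 and 454 at 0 h, and 312, 297 and 317 in vector cells, against 401, 418 and 434. At 6 h both lines had been alike, at 104 ± 10.0 in WT and 106 ± 1.73 in vector cells (SD, n = 3 each). The vector arrays had then returned most of the way and the WT arrays had not, and the WT relative change was -1.07 ± 0.14 (adjusted p = 2.82e-07).

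Aars, the alanine synthetase, read 699, 744 and 686 in WT cells at 12 h, against 1777, 1785 and 1330 at 0 h, and 1157, 1066 and 1149 in vector cells, against 1142, 1550 and 1548. Its vector arrays at 12 h overlapped those at 0 h, and its WT relative change was -0.87 ± 0.19. Iars, the isoleucine synthetase, was at -0.81 ± 0.20, a call that ended (-0.67, adjusted p = 0.0508) without vector 0 h replicate 1 and on a further probe set of suffix _s (-0.64, adjusted p = 0.0643). Tars, the threonine synthetase, read 573, 546 and 530 in WT cells at 12 h, against 868, 900 and 852 at 0 h, and 854, 876 and 874 in vector cells, against 899, 906 and 899. Its relative change was -0.61 ± 0.11 in WT and -0.38 ± 0.11 in K298E cells, and the K298E call ended when any of 9 of 12 arrays was left out (adjusted p up to 0.105). Nars, Mars, Sars and Lars, the asparagine, methionine, serine and leucine synthetases, lay between -0.58 and -0.39 in WT cells. For Sars, at -0.49, a further probe set of suffix _s gave -0.19 (adjusted p = 0.532). In Δ(177-191) cells 9 of the 12 had a higher relative change at 6 h, although none had risen from its own 0 h, and at 12 h Mars (-0.55 ± 0.12) and Yars (-0.59 ± 0.12) were lower and none was higher on the brightest probe sets. On further probe sets Wars was higher, at 0.78 (adjusted p = 0.00477) and 0.41 (adjusted p = 0.0104), as was Sars at 0.38 (adjusted p = 0.0212), against 0.18 for Wars and 0.10 for Sars on the brightest.

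At 6 h in Δ(177-191) cells, 25 of the 37 genes had a higher relative change and 1 a lower one, where 18.3% of all genes passed (8.18% higher and 10.1% lower), and the median was 0.69, against -0.03 for all genes. Only 10 of the 25 had risen from their own 0 h, and the other 15 had fallen less than in vector cells or not passed the test. At 12 h, 8 of the 25 were still higher: Asns, Atf5, Mthfd2, Nupr1, Psat1, Sesn2, Slc3a2 and Slc7a11. Nupr1, Psat1 and Slc7a11 rose from their own 0 h at all 3 times. Chac1 passed the test at all 3 times too, but read 11, 13 and 6 at 0 h, below the filter signal of 14, and nothing is read from it. Its call at 12 h ended when any of 5 of 6 arrays was left out (0.66 to 0.98: Δ(177-191) 0 h replicates 1 and 3 and all 3 at 12 h).

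The constructs were set against each other by their mean change over 6, 9 and 12 h. WT minus K298E was lower for 13 of the 37 genes and higher for 1, where 17.6% of all genes passed (9.12% lower and 8.45% higher), and 6 of the 8 regulators were among the lower ones. Trib3 differed by -1.54 ± 0.17, Slc1a4 by -1.24 ± 0.15 and Ddit3 by -0.83 ± 0.19, while Nupr1 differed by 0.68 ± 0.13. The count of 14 was 9 without all arrays numbered 2, and 4 (3 lower and 1 higher) after median centring, which took off -0.14. WT minus Δ(177-191) was lower for 23 genes, the dim Fgf21 among them, and higher for none, where 25.4% of all genes passed (11.1% lower and 14.3% higher), including 8 of the 12 tRNA synthetases. Trib3 differed by -1.97 ± 0.17, Nupr1 by -1.94 ± 0.13, Atf5 by -1.68 ± 0.17 and Asns by -1.43 ± 0.07. Median centring, which took off -0.20, left 13 of these. Both differences carry the starting levels of the lines. Against vector cells at 0 h, 11 genes were lower in K298E and 27 in Δ(177-191) cells, and 2 were higher in WT cells. No direct comparison of WT with the mutants at 0 h is given here.

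Genes of the same processes outside the list gave the following counts at 12 h. Counts for 3 further lists are not given: other amino acid transporters, other serine, glycine and folate enzymes, and partner factors of ATF4. In Δ(177-191) relative change these held calls in both directions, such as Shmt1 (-1.19) and Mthfd1 (-1.15), and Slc36a1 (1.37) and Cebpb (0.87). For reading them, the shares of all genes were 14.8% higher and 16.2% lower in WT cells and 7.71% higher and 9.77% lower in vector cells against 0 h. For the relative change they were 3.83% higher and 3.38% lower in WT cells and 9.97% higher and 12.4% lower in Δ(177-191) cells. Of the 7 tested cytosolic tRNA synthetases not on the list, 4 were higher than at 0 h in WT cells and none was lower, and the same count held in vector cells. These were Hars, Kars, Farsa and Farsb, the histidine, lysine and both phenylalanine synthetase genes, while 11 of the 12 listed synthetases were lower in WT cells. Farsa read 1376, 1357 and 1416 at 12 h in WT cells, against 841, 766 and 751 at 0 h, with no overlap and a relative change of 0.46 ± 0.12. In Δ(177-191) cells 4 of the 7 had a lower relative change, and Vars, the valine synthetase, had the largest drop, -1.29 ± 0.13. Of 16 mitochondrial tRNA synthetases, 1 was higher and none lower in relative change in WT cells, and 5 were lower in Δ(177-191) cells, of which the WT count is near the share of all genes (7.2% in either direction).

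Other genes known to respond to ATF4 followed in part. Of 20 tested, 12 were lower and 1 higher than at 0 h in WT cells at 12 h, and 14 lower and none higher in vector cells, and in relative change 6 were lower and 1 higher in WT cells. Slc6a9, the glycine transporter, read 86, 100 and 85 in WT cells at 12 h, against 398, 462 and 366 at 0 h, and 164, 182 and 173 in vector cells, against 368, 347 and 356. Its arrays did not overlap between the lines at 12 h, and the WT relative change was -1.10 ± 0.15. In WT relative change Txnip was lower as well (-0.86 ± 0.12), while Ero1a was the 1 higher (0.83 ± 0.15). Of the 20, 9 were higher and 3 lower in relative change in Δ(177-191) cells. Atf3, a stress-induced partner factor, read 177, 182 and 175 in Δ(177-191) cells at 12 h, against 66, 66 and 67 at 0 h, while vector arrays read 22, 4 and 3. A further list of 14 genes around eIF2 held its subunits (Eif2s), the Eif2b genes, its kinases (Eif2ak), Gcn1, Impact and the phosphatase partner Ppp1r15b. Of these 14, 7 were higher and 1 lower than at 0 h in WT cells (all genes 14.8% and 16.2%) and 4 higher in vector cells (all genes 7.71%). In relative change 1 of the 14 was lower in WT cells, near the 7.2% of all genes that passed, and 5 in Δ(177-191) cells (all genes 12.4% lower). Of 12 endoplasmic reticulum chaperones, 2 were higher in relative change in WT (all genes 3.83%) and 5 in Δ(177-191) cells (all genes 9.97%), and none was lower in either.

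The promoter letters were set beside the changes without a test. Of 12 tested genes with the CARE core in their window, 6 were lower and 1 higher in WT relative change at 12 h (all genes 3.38% and 3.83%), with a median of -0.50. Of 19 tested genes with a window and no core, 5 were lower and none higher, with a median of -0.34. For the Δ(177-191) relative change at 6 h (all genes 8.18% higher and 10.1% lower), 8 of the 12 with the core were higher and 1 lower, with a median of 0.95, and 12 of the 19 without it were higher and none lower, with a median of 0.64. Trib3 was among the first kind and Atf4 and Mthfd2 among the second, and Cars had no window.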

How the data were processed

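RNA of the 48 cultures was measured on Affymetrix MOE430_2 arrays. The deposited intensity values, 1 per probe set and array, were made by the authors with MAS5, per the submitters' processing notes, and its version was not given in the sources used here. MAS5 scales each array to a common mean, so a shift of most genes is not seen, and low signals are imprecise. The number of arrays limits the precision.

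The 64 control probe sets were left out. Of the rest, 34945 named 1 gene symbol, 932 named several and 9160 had none here. The deposited signals were used as log2(signal + 3), a fold change on that scale understating changes of low genes, and probe sets were kept if at least 1 group mean passed the median log2 value of all arrays (4.09, a signal of 14). limma 3.58.1 in R 4.3.3 (lmFit, eBayes with a trend) fitted 16 group means with 32 residual degrees of freedom, and Benjamini-Hochberg adjustment ran over all 27167 probe sets tested. The fit was tested on simulated data. Values are the estimate ± SE on the log2 scale, or the mean signal ± SD where n is given.

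Arrays were grouped by the labels' line and time, and no 2 arrays held identical values. Replicate numbers did not pair the arrays. Alternatives were another pseudocount, no filter, median centring, quantile normalisation, the compared groups alone, a replicate block, other probe sets and leaving arrays out. Genes given array by array were Atf4, Atf5, Ddit3, Trib3, Asns and up to 4 genes per role with the largest WT relative change at 12 h among those called in any construct. Genes of the other lists were drawn from the 2 highest and 2 lowest called, and not all of these are named. Other genes named were chosen after their values were seen. The genes and lists themselves were chosen with earlier results of these data known.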

Additional observations from a re-analysis of the deposited data

Results flagged for a closer look

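The listed differences between construct lines in the mean change over 6, 9 and 12 h passed the limma test of the difference itself (adjusted p under 0.05) and were noted for that reason. All are on the log2 scale and include the lines' different starting levels, and their causes were not tested.

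For WT minus K298E, the regulators Trib3 (-1.54), Ddit3 (-0.83), Sesn2 (-0.83), Ddit4 (-0.79), Ppp1r15a (-0.60) and Atf4 (-0.49) were lower and Nupr1 (0.68) was higher. The transporters Slc1a4 (-1.24) and Slc38a2 (-0.43) and the folate enzyme Mthfd2 (-0.33) were lower. The tRNA synthetases Aars (-0.64), Cars (-0.52), Sars (-0.39) and Lars (-0.24) were lower, and the Lars call ended when any of 17 of 24 arrays was left out (-0.25 to -0.22).

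For WT minus Δ(177-191), the regulators Trib3 (-1.97), Nupr1 (-1.94), Atf5 (-1.68), Ddit3 (-1.23), Sesn2 (-1.12) and Atf4 (-0.85) were lower. Fgf21 (-2.23) passed as well, but its Δ(177-191) signals at 0 h were 2, 2 and 11, below the filter signal of 14, so the size of its difference is not read as a result. The enzymes Asns (-1.43), Mthfd2 (-1.36), Psat1 (-1.22) and Phgdh (-0.56) were lower. The transporters Slc7a11 (-0.93), Slc3a2 (-0.72), Slc1a4 (-0.60) and Slc7a5 (-0.28) were lower, and the Slc7a5 call ended when WT 0 h replicate 1 or 2 or Δ(177-191) 0 h replicate 1 was left out (-0.27 to -0.23). The tRNA synthetases Cars (-1.25), Aars (-0.81), Iars (-0.76), Tars (-0.62), Nars (-0.61), Sars (-0.56), Gars (-0.36) and Lars (-0.32) were lower, and the Gars call ended (-0.31) without Δ(177-191) 0 h replicate 3.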

How the results depend on the processing

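Under median centring of the arrays the genes called were 6 for the WT, 0 for the K298E and 6 for the Δ(177-191) relative change at 12 h, 12 for K298E and 11 for vector cells at 12 h against 0 h, 0 for WT and 7 for K298E against vector at 0 h, 4 for WT minus K298E and 13 for WT minus Δ(177-191). Quantile normalisation gave 1 for WT and 17 for K298E at 0 h. Calls were lost under median centring also where the shift taken off was small, as for vector cells at 12 h against 0 h (-0.03). The cause was not tested. Over fits that left arrays out, the counts ranged from 10 to 16, 1 to 8 and 7 to 14 for the relative change in WT, K298E and Δ(177-191) cells, from 27 to 29, 11 to 22, 19 to 22 and 13 to 21 for the change from 0 h in WT, K298E, Δ(177-191) and vector cells, from 0 to 2, 6 to 10 and 24 to 28 for WT, K298E and Δ(177-191) against vector at 0 h, and from 9 to 15 and 17 to 25 for WT minus K298E and WT minus Δ(177-191). The other alternatives kept every count within 1.5 times.

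Of the results for single genes, 355 kept their direction and call under median centring and 89 lost the call. With the replicate block 441 kept them, 2 gained and 1 lost a call, and same-numbered arrays had a median correlation of deviations of 0.0095 (-0.15 to 0.147), so the numbers gave no pairing. Wars in Δ(177-191) cells at 12 h against 0 h was 0.30 (adjusted p = 0.00505) from a probe set without the suffix _s or _x, against -0.11 from the brightest one, and the 2 probe sets thus disagree. MAS5 signals near 14 and below limit what can be said of Chac1, Fgf21, Stc2 and Slc7a3.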
